A study of Rattus norvegicus with 6 samples.

Results

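Genes of the cell division program were examined in tumors of rats given digitoxin or vehicle. The list held 51 genes, taken by symbol for their roles in DNA replication, in entry into mitosis and in the spindle, by a rule that uses no level. Of these, 49 had a row in the deposited table of 17557 rows under 17030 symbols. Levels of Bub1b and Cenpe were not analysed here. Cenpf was at 0.448 to 0.835 FPKM (fragments divided by transcript length and library size), with a mean below the minimum of 1 FPKM, so 48 genes entered the test across 10749 rows.

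PAIII is a transplantable, hormone-resistant prostate cancer that is carried by passage in Lobund-Wistar rats. Its cells were injected under the skin of the flank of rats of that strain aged 2 months, so every group shares the same graft and host. Tumors A1, A6 and A12 came from rats that received digitoxin, a cardiac glycoside that inhibits the sodium pump, at 0.03 mg/kg daily from day 10, and tumors B5, B9 and B14 came from rats on vehicle, with all tumors taken at day 40. The rats were picked from opposite ends of the serum IL-6 and CINC-1 range, low for digitoxin and high for vehicle, so treatment cannot be told apart from that selection, and each of the 6 libraries pooled small punches from 1 tumor.

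A dividing cell passes from G1 into S phase once cyclin D with Cdk4 and cyclin E with Cdk2 release E2F factors from the retinoblastoma protein. E2F factors switch on the genes that load the replicative helicase and make deoxynucleotides, and a later wave of transcription, driven by the MuvB complex with B-Myb and Foxm1, supplies the cyclins, kinases, motors and checkpoint proteins of mitosis. Resting cells hold little of these mRNAs, so they are widely used to grade how many cells of a tumor are cycling, Mki67 most of all.

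Sites tied to both waves were searched for in the promoters. Windows are shown for genes picked by hand from those with a match before the start, so they do not stand for all members. Promoters of 39 of the 51 listed genes were matched by symbol in RefSeq (assembly GRCr8), each from 250 bases before to 50 bases after the start, and they include those of Bub1b, Cenpe and Cenpf. The mitotic genes carry the cell cycle genes homology region, CHR, searched as TTTGAA, as TTTAAA, as TTCGAA and as CTTGAA on both strands. Replication genes carry E2F sites, searched as TTGGCGC, as TTCCCGC, as TTCGCGC and as TTGCCGC on both strands, and many of either kind hold CCAAT boxes, bound by NF-Y. Each window below is 30 bases, 5′ to 3′ on the strand of the gene, around the CHR match (mitotic genes) or E2F-like match (replication genes) that lies closest to the start and wholly before it, and capitals mark CHR, E2F-like and CCAAT letters, which overlap in some windows.
Ccnb1 (chr2:33655233-33655262, minus strand): agcggcccggggTTTAAAcccaggcccggc
Cdk1 (chr20:19265263-19265292, plus strand): tttaccgcggtgagTTTGAAactgctggca
Top2a (chr10:84473098-84473127, minus strand): gctagatgaatgTTCAAAtgaaactaggga
Mki67 (chr1:199952675-199952704, minus strand): ccgccgttttcgTTTGAATTGGgcgggcac
Pttg1 (chr10:28406338-28406367, minus strand): cgcgagttggaaTTCAAActgcggtgcgcc
Birc5 (chr10:103572116-103572145, plus strand): cggcgcgtctccgcccgcgggtTTTGAAtt
Mcm2 (chr4:122918095-122918124, minus strand): ggtcacgtgacccggttTTCGCGCGAAaac
Mcm6 (chr13:42404407-42404436, minus strand): tggacagacTTGGCGCGAAgtagctcagct
Mcm7 (chr12:22163209-22163238, minus strand): tgacgacgtTTCGCGCCAATttcggttgga
Rrm1 (chr1:166235703-166235732, plus strand): aggagaaatcggTTCCCGCcagatccgctt
Tyms (chr9:120776102-120776131, minus strand): aaggtgcgggttTTGGCGCcgactacactg

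Counted from the start, with -1 as the base before it, the CHR match began at -25 in Ccnb1, at -16 in Cdk1, at -22 in Top2a and at -29 in Pttg1. In Ccnb1, CCAAT boxes stood upstream of it at -82 and -50, and in Pttg1 at -92 and -51. Among the genes not shown, Pcna held no E2F-like match, and the only CHR match of Mad2l1 began at 28, after the start. The E2F-like letters of Mcm2, Mcm6 and Mcm7 read as such on both strands, because a match on 1 strand overlaps a match on the other, TTCGCGC with itself in Mcm2 and TTCGCGC with TTGGCGC in Mcm6 and Mcm7, and in Mcm7 the run goes on into a CCAAT box.

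All 24 mitotic promoters held CHR letters, against 3 of 12 replication promoters, 38.7% of the 33469 promoters in the RefSeq table and 26.8% of the 7960 that belong to symbols tested here. E2F-like letters went the other way, in 9 of 12 replication promoters and 5 of 24 mitotic ones, beside 9.52% of all promoters and 17.4% of those tested here. A CCAAT box was found in 19 of 24 mitotic and 8 of 12 replication promoters, beside 37.5% of all. The TATA box, searched as TATAAA on both strands, was in 1 of the 39 promoters, in 14.2% of all and in 6.88% of those tested here. Within the 100 bases just before the start, CHR letters were in 19 of 24 mitotic promoters and in 13.8% of all. E2F-like letters were there in 5 of 12 replication promoters, in 3 of 24 mitotic ones and in 3.63% of all. These matches are letters in a window and do not show that a factor binds there.

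**Figure D1:**
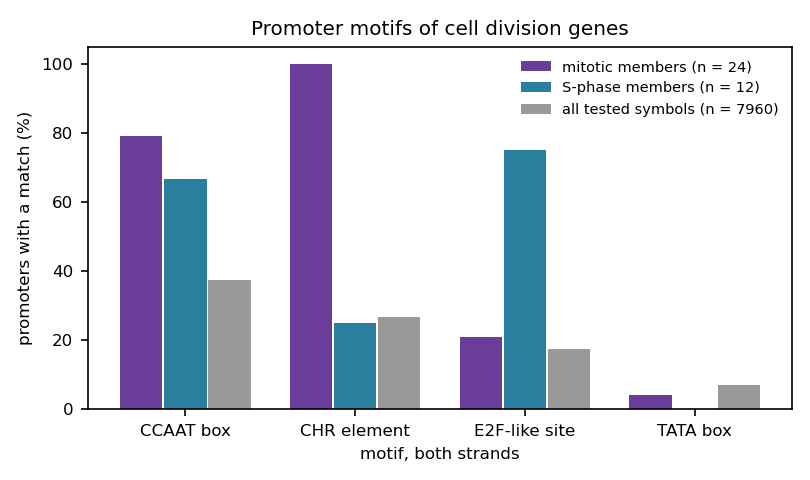
Share of promoters (percent, vertical axis from 0) that hold each motif (horizontal axis), for 24 mitotic members, 12 S-phase members and the 7960 promoters of symbols tested here. CHR letters were in 100% of the mitotic promoters and E2F-like letters in 75.0% of the S-phase promoters.

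The libraries did not hold tumor cells alone. The 8 lung alveolar markers, led by the surfactant mRNA Sftpc, summed to 49874 FPKM in A1, 82361 in A6, 26955 in B5 and 34947 in B9, but to 18.7 in A12 and 26.9 in B14, where 4 of the 8 were listed at 0. Libraries A12 and B14, of opposite groups, were the most alike (r = 0.985 across 10749 rows), and the 10 highest rows held 9.24% of all FPKM in B14 and 36.3% in A6. Reads were not analysed here and the depth of each library is unknown, so no counting error can be given. In such bulk RNA, fewer dividing cells and less RNA per dividing cell cannot be told apart.

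Digitoxin was first compared with vehicle over all 48 genes. Every one had a lower mean on the log2(FPKM + 1) scale with digitoxin, 48 of 48 beside 64.9% of all rows tested. The median log2 fold change was -0.95, against -0.16 over all rows, and 21 of 48 genes were lower by at least 1, as were 6.35% of all rows. The count of 21 was 13 with median-of-ratios scaling (4.07% of all rows) and with reference gene scaling (3.64%), 0 without A6 (0.67%), 12 without B14 (4.85%), 29 without A1 (9.14%) and 40 without A12 (18.2%). None of these differences passed the test against the spread between tumors: with limma, 0 of 48 genes passed an adjusted p of 0.05 (0.0% of all rows), and none had an unadjusted p under 0.05 in the lower direction, a call made for 0.27% of rows. The standard errors ran from 0.29 to 1.36, the adjusted p-values of limma ran from 0.926 to 0.937, and the 95% interval of every gene held 0. Only Tyms had groups that did not overlap, 1 of 48 beside 3.26% of all rows.

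The tumors of the digitoxin group lay far apart. A6 was the lowest of the 6 tumors for 48 of 48 genes, as it was for 50.5% of all rows. The 48 genes had a median of 3.87 FPKM in A6, against 23.0 in A1 and 55.7 in A12 under the same treatment. In the vehicle tumors the medians were 28.6 FPKM in B5, 31.1 in B9 and 50.2 in B14. Thus A12 was above the highest vehicle tumor, A1 a little below the lowest, and A6 far below all others.

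**Figure D2:**
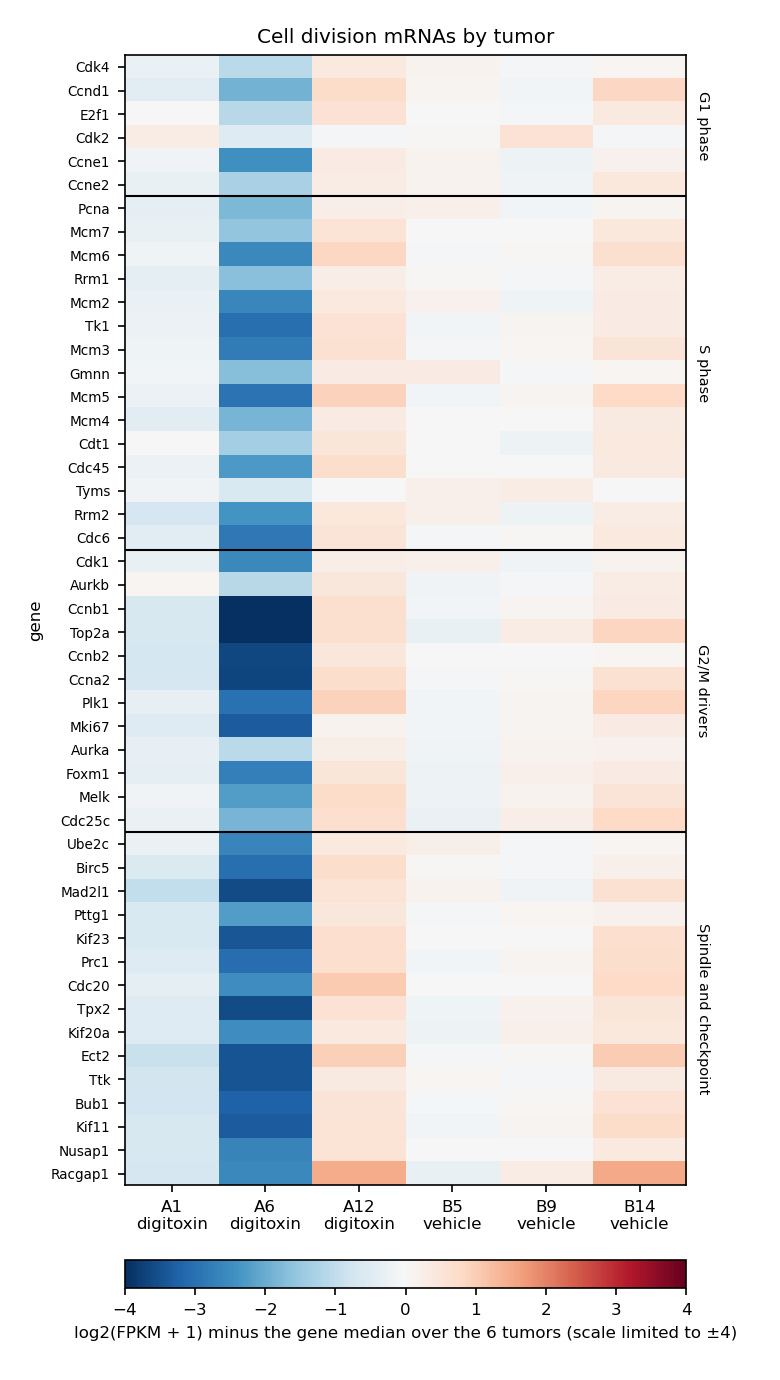
Heat map of the 48 genes (rows, by set and then by mean level) in the 6 tumors (columns). Color is log2(FPKM + 1) minus the median of the gene over the 6 tumors, limited to 4 either way. The column of A6 is the lowest in every row, and most rows are highest in A12 or B14.

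The order of the tumors was shared by most genes. A12 was the highest tumor for 31 genes (20.0% of all rows) and B14 for 14 (21.5% of all rows). The exceptions were Cdk2 and Tyms, both highest in B9, and Gmnn, highest in B5. In 41 of 48 genes A6 was lowest with A12 and B14 as the 2 highest, a pattern that 27.3% of all rows had. A1 lay below all 3 vehicle tumors for 41 genes (37.2% of all rows) and A12 above all 3 for 31 (21.7% of all rows). Over the 6 tumors, the correlation of a gene with the median of the other members had a median r of 0.985, and without A6 it was 0.922 over 5 tumors. Cdk2 (r = 0.55) and Tyms (r = 0.79) followed the others least over 6 tumors, and without A6 their r was -0.66 and -0.07. These tumors share libraries and scaling across genes, so the correlations are a description.

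**Figure D3:**
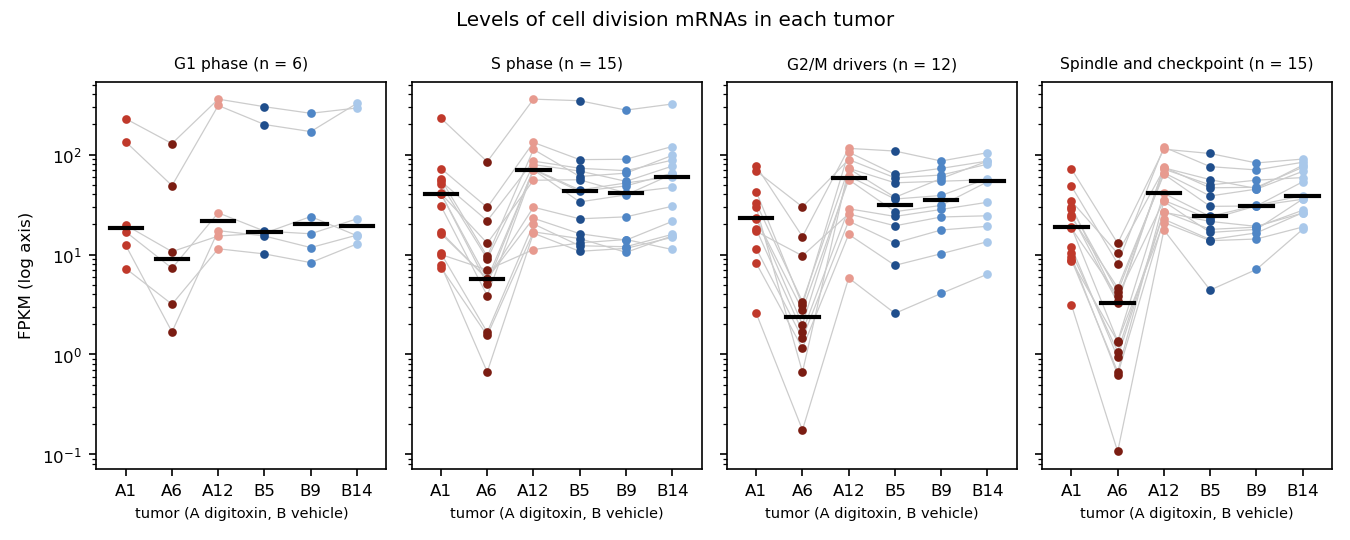
FPKM of each gene (points joined by gray lines, log axis) in the 6 tumors, for the G1, S-phase, G2/M driver and spindle sets, with black bars at the median of the set. The medians of A6 are the lowest in each set. Gene by gene, the median of the other 5 tumors over A6 is largest among the G2/M drivers and the spindle genes. Its set medians are 14.1 and 13.7 there, against 6.80 in the S-phase set.

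The G1 genes were the least different. Cdk4, the kinase partner of D cyclins, was at 228, 129 and 359 FPKM in A1, A6 and A12 and at 301, 259 and 293 in B5, B9 and B14. Ccnd1, cyclin D1, was at 134, 48.9 and 310.1 FPKM with digitoxin and at 199.9, 169.8 and 326 with vehicle. A6 was lowest for both, and A12 was within or above the vehicle range.

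E2f1, the factor that the G1 kinases release, was at 16.9, 7.30 and 26.1 FPKM in A1, A6 and A12 and at 17.2, 16.1 and 22.8 in B5, B9 and B14. Cdk2, the partner of cyclins E and A, was at 19.7, 10.7 and 15.3 FPKM with digitoxin and at 16.4, 24.0 and 15.4 with vehicle. The groups overlapped for both. Log2 fold changes of the set were -0.81 for Ccnd1, -0.80 for Ccne1, -0.58 for Ccne2, -0.37 for Cdk4, -0.29 for E2f1 and -0.28 for Cdk2. Ccne1 and Ccne2 encode the E cyclins, which fire S phase. The set had a median of -0.47, and 0 of its 6 genes were lower by at least 1 (2 without A12), beside -0.16 and 6.35% over all rows.

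Of the 15 S-phase genes, Pcna, the sliding clamp of the replicative polymerases, had the highest mean level. It was at 231, 84.9 and 359 FPKM in A1, A6 and A12 and at 346, 279 and 321 in B5, B9 and B14. A1 and A6 lay below all vehicle tumors and A12 above them. The log2 fold change of Pcna was -0.71 ± 0.52 (standard error, n = 3 tumors in each group).

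Mcm2 to Mcm7 are the 6 subunits of the ring-shaped helicase that unwinds DNA. Mcm7 was at 72.5, 29.6 and 132 FPKM with digitoxin (A1, A6, A12) and at 89.0, 89.8 and 120.4 with vehicle (B5, B9, B14). Mcm6 was at 56.5, 9.59 and 113 FPKM with digitoxin and at 60.3, 65.2 and 98.1 with vehicle. Mcm2 was at 50.7, 9.03 and 79.3 FPKM with digitoxin and at 68.5, 54.0 and 76.6 with vehicle. The 3 genes gave 1 picture, with A6 lowest, A1 next and A12 highest of all tumors. Log2 fold changes of the subunits ran from -1.02 for Mcm5 to -0.58 for Mcm7, with Mcm3 at -0.95, Mcm2 at -0.94, Mcm6 at -0.85 and Mcm4 at -0.78. The ring is made in equal parts, yet its mRNAs were unequally low in A6: the median of the other 5 tumors was 10.2 times the level of A6 for Mcm5 and 3.04 times for Mcm7.

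The genes that load this helicase, hold its loading back or start it differed more widely. Cdc6 had a log2 fold change of -1.06, Cdc45, which joins the helicase as origins fire, -0.73, Gmnn, which blocks Cdt1 after S phase begins, -0.61, and Cdt1 -0.35. Among enzymes of deoxynucleotide supply, Rrm2, the regulated subunit of ribonucleotide reductase, was at -0.98, Tk1 at -1.0, Rrm1 at -0.69 and Tyms at -0.43. Rrm1 was at 54.0, 21.8 and 86.1 FPKM with digitoxin (A1, A6, A12) and at 73.0, 69.0 and 87.9 with vehicle (B5, B9, B14). A6 was again lowest, and A12 was just under B14.

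Tyms, thymidylate synthase, was at 9.998, 7.02 and 11.21 FPKM with digitoxin (A1, A6, A12) and at 13.1, 14.1 and 11.24 with vehicle (B5, B9, B14). It was the one gene whose groups did not overlap, with A12 just under B14, and it had an adjusted p of 0.926 in limma. The whole S-phase set had a median log2 fold change of -0.78, and 3 of its 15 genes were lower by at least 1, beside -0.16 and 6.35% over all rows. That count was 0 with median-of-ratios or reference gene scaling, without A6 and without B14, and it was 7 without A1 and 13 without A12.

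Among the 12 G2/M drivers, Cdk1, the kinase that starts mitosis, was at 76.7, 15.1 and 115 FPKM in A1, A6 and A12 and at 108, 86.2 and 104 in B5, B9 and B14. Its partner Ccnb1, cyclin B1, was at 42.7, 3.12 and 106 FPKM with digitoxin and at 63.3, 72.8 and 86.1 with vehicle. For both, A12 was the highest of all tumors. The group means of Ccnb1 were 50.5 ± 51.8 and 74.1 ± 11.4 FPKM (SD, n = 3), so that the SD of the digitoxin group was as large as its mean, and the log2 fold change was -1.48 ± 1.14 (standard error).

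Top2a, the topoisomerase that untangles sister chromatids, was at 29.7, 0.665 and 72.5 FPKM with digitoxin (A1, A6, A12) and at 37.3, 57.7 and 85.96 with vehicle (B5, B9, B14). It had the lowest log2 fold change of the 48 genes, at -1.90 ± 1.36 (standard error), and the 95% interval ran from -5.20 to 1.40. Mki67, the proliferation marker that coats mitotic chromosomes, was at 17.9, 1.69 and 28.7 FPKM with digitoxin and at 24.1, 28.3 and 33.3 with vehicle. For Mki67 the interval ran from -3.49 to 0.79 around -1.35. In both genes the median of the other 5 tumors was many times the level of A6, by 86.7 times for Top2a and 16.7 times for Mki67.

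Foxm1, which activates many genes of this set, was at 11.5, 1.45 and 21.6 FPKM with digitoxin (A1, A6, A12) and at 13.0, 17.6 and 19.2 with vehicle (B5, B9, B14). Aurkb, the kinase of the chromosomal passenger complex, was at 68.5, 29.97 and 89.2 FPKM with digitoxin and at 58.6, 62.5 and 80.1 with vehicle. A12 was the highest tumor for each, and for Aurkb A1 too was above B5 and B9. Log2 fold changes were -1.42 for Ccna2 (cyclin A2), -1.32 for Ccnb2, -1.08 for Plk1, -0.98 for Foxm1, -0.93 for Cdk1, -0.74 for the phosphatase Cdc25c, -0.69 for Melk, -0.44 for Aurka and -0.22 for Aurkb. The median of the 12 was -1.03. Ccnb2 and Racgap1 are placed on other chromosomes by the table than by RefSeq, and the row of Ccnb2 spans 1496 bases where RefSeq gives 13259, so the identity of these values is uncertain.

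The spindle, checkpoint and cytokinesis genes were the lowest group, with a median log2 fold change of -1.20 over 15 genes, of which 12 were lower by at least 1, beside -0.16 and 6.35% over all rows. That count was 8 with median-of-ratios or reference gene scaling, 7 without B14 and 0 without A6. Ube2c, the ubiquitin-conjugating partner of the anaphase-promoting complex, was at 71.8, 12.9 and 113 FPKM with digitoxin (A1, A6, A12) and at 103, 82.5 and 90.2 with vehicle (B5, B9, B14). Birc5, survivin, was at 48.2, 8.13 and 119 FPKM with digitoxin and at 75.8, 70.2 and 83.8 with vehicle. In both, A1 and A6 lay below all vehicle tumors and A12 above them.

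Mad2l1, a protein of the spindle checkpoint, was at 24.9, 3.30 and 73.7 FPKM with digitoxin (A1, A6, A12) and at 56.1, 45.7 and 78.1 with vehicle (B5, B9, B14). Pttg1, securin, which holds separase inactive, was at 34.2, 10.3 and 71.5 FPKM with digitoxin and at 49.8, 55.5 and 58.9 with vehicle. A12 was second to B14 for Mad2l1 and highest for Pttg1. Mad2l1 had the lowest fold change of the set, at -1.55 ± 0.99 (standard error), and the smallest unadjusted p of the 48 genes in limma, 0.167. With a pseudocount of 0.1 in place of 1, Racgap1, at 0.107 FPKM in A6, had the lowest of the set, at -1.87, and Mad2l1 was at -1.67.

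The checkpoint kinases Bub1 and Ttk were at log2 fold changes of -1.34 and -1.38. Motors and bundlers of the spindle were at -1.38 for Kif11, -1.35 for Kif23, -1.35 for Tpx2, -1.20 for Prc1, -1.06 for Nusap1 and -1.01 for Kif20a. Ect2 and Racgap1, which position the cleavage furrow, were at -1.47 and -1.09, and Birc5, Ube2c, Cdc20 and Pttg1 were at -1.03, -0.92, -0.86 and -0.86. Cenpf, a kinetochore protein, was too low to test, at 0.704, 0.488 and 0.448 FPKM with digitoxin (A1, A6, A12) and 0.540, 0.610 and 0.835 with vehicle (B5, B9, B14).

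**Figure D4:**
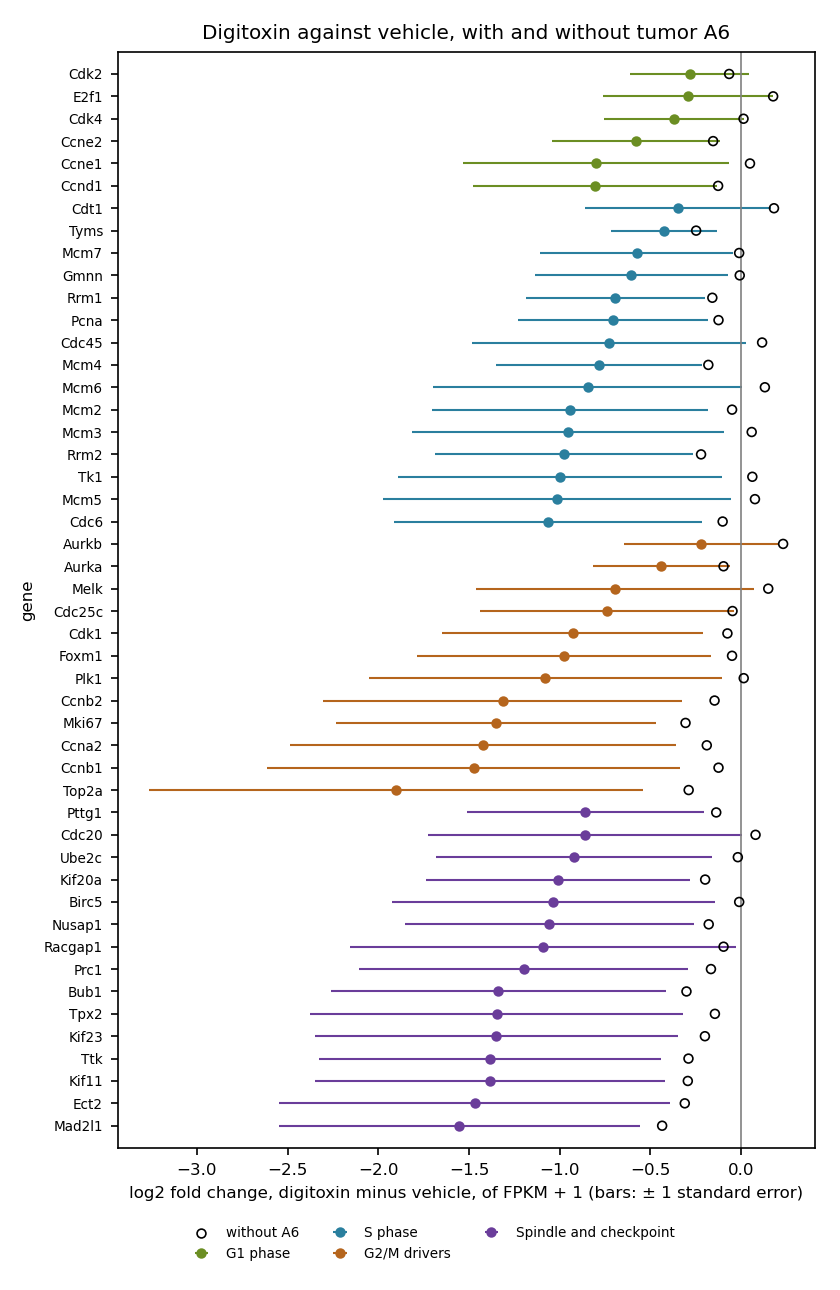
Log2 fold change of each gene (digitoxin minus vehicle, FPKM + 1) with 1 standard error either way, colored by set, and open circles for the same value without tumor A6. All 48 filled points are below 0 and every 95% interval holds 0. The open circles lie close to 0 on either side.

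The gap between A6 and the other tumors was wider for mitotic than for replication mRNAs. The median of the other 5 tumors over A6 was 13.7 for the 27 mitotic genes, 6.80 for the S-phase genes, 2.77 for the G1 genes and 1.26 for all rows. Racgap1 (66.2), Ect2 (26.6), Kif11 (26.2) and Ccnb1 (23.3) followed Top2a. The smallest ratios were those of Cdk2 (1.53), Tyms (1.60), Cdk4 (2.27) and Aurkb (2.29). Within 1 tumor, ratios do not depend on how libraries are scaled: Ccnb1 over Pcna was 0.185, 0.0368 and 0.295 in A1, A6 and A12 and 0.183, 0.261 and 0.269 in B5, B9 and B14. Top2a over Pcna was 0.00784 in A6 and between 0.108 and 0.268 elsewhere. A1 and A12 had ratios within or near those of the vehicle tumors. The direction of such a ratio depends on the pair chosen, because the sets overlapped. The median of the other 5 tumors over A6 was 3.78 for Pcna but 17.2 for Cdc6 and 10.3 for Tk1. It was 2.45 for the mitotic gene Aurka. The median mitotic level over the median S-phase level differed less, at 0.562, 0.484 and 0.799 in A1, A6 and A12 and at 0.627, 0.750 and 0.886 in B5, B9 and B14, so that A6 was only slightly below A1. The difference between the sets was not tested.

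As an alternative, the tumors were paired by the replicate numbers of the labels, and each pair was also read alone. The data do not single out this pairing, since A1 correlated more with B9 than with B5. A1 was below B5 for 44 of 48 genes (54.4% of all rows), with a median log2 difference of -0.41. A6 was below B9 for 48 of 48 (67.4% of all rows), at -2.61. A12 was below B14 for 16 of 48 (51.3% of all rows), at 0.11. The pairs thus differed in direction as well as size. With the pair as a block in limma, Mad2l1 was the 1 gene of 48 past an unadjusted threshold of 0.05, beside 2.83% of all rows in the lower direction, and no adjusted value passed.

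The comparison turned on single tumors. Without A6 the median log2 fold change was -0.10, that of all rows was -0.08, and 35 of 48 genes were lower, beside 66.3% of all rows. Without A12 the median was -1.63, and 26 genes had an unadjusted p under 0.05 in limma, all lower, beside 15.6% of all rows, but the smallest adjusted p was 0.252. Without both A12 and B14, the libraries nearly free of lung mRNAs, a comparison added after seeing the data, the median was -1.49 and 8 genes had an unadjusted p under 0.05, beside 7.14% of all rows.

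Summed lung mRNAs were highest in the tumors where the cell division genes were lowest, except that B9 was above B5 for both. A6, with the lowest levels of these genes, had the highest sum of lung alveolar markers, 82361 FPKM, and A1, second lowest, had the second highest. Sftpc gave 63514 of the sum in A6, and 3 of the 8 markers were not highest there: Sftpa1 was at 6689 FPKM in A6 and 7068 in A1, Lamp3 was at 149 in A6 and 327 in B9, and Rtkn2 was at 1.31 in A6 and 11.3 in B9. The 5 airway markers in the table were likewise highest in A6 and A1, at 131829 FPKM in A6, 55791 in A1, 23110 in B9 and 21099 in B5, with 9.62 in A12 and 7.04 in B14, and Scgb1a1 carried nearly all of the sum in A6. Endothelial markers summed to 1378 FPKM in A6 and to 81.8 and 97.7 in A12 and B14. Cldn5 gave 767 of the sum in A6, and Cdh5 was lower in A6, at 6.34 FPKM, than in B14 (10.2) and B9 (27.3). The 9 leukocyte markers summed to 40486 FPKM in A6 and to 1177 and 2313 in A12 and B14, but Lyz2, lysozyme, made up most of the sum in A6, at 39245. The other 8 summed to 1241 in A6, 290 in A12 and 522 in B14, and Cd53 was lower in A6, at 56.1 FPKM, than in B14, at 97.0. Hemoglobin and other erythroid mRNAs summed to 10228 FPKM in A6 and 97.0 in A12.

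Epithelial and fibroblast markers were ordered otherwise. The 5 epithelial markers, Krt8 the highest of them, summed to 810 FPKM in A6, 1650 in A1 and 2952 in A12, and to 1654 to 2394 with vehicle. Krt8 alone gave 2095 of the sum in A12, whereas Cdh1 was lowest in A12 (90.9 FPKM, with 92.7 in A6) and Epcam was lowest in A1 (208 FPKM, with 213 in A6). The 7 fibroblast markers, collagens among them, summed to 2791 FPKM in A12 and 3950 in B14 and to between 221 and 840 in the others. Col1a1 and Col3a1 carried most of these sums in A12 and B14, Col1a2 was listed at 0 in all 6 tumors, and Pdgfra was highest in A6, at 10.8 FPKM. Surfactant mRNAs define alveolar cells of the lung, while all 6 samples carry the label PAIII tumor. The part of these cell types in the lower mean of the digitoxin group was not tested.

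**Figure D5:**
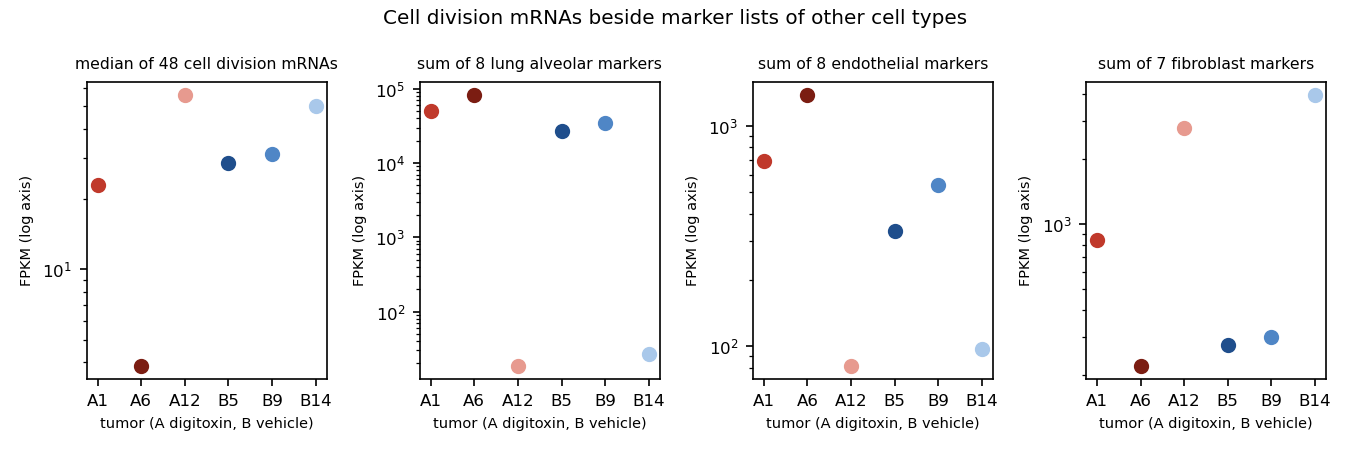
FPKM (log axes) in each tumor of the median cell division gene and of the summed lung alveolar, endothelial and fibroblast markers. A6 is the lowest tumor for the cell division genes and the highest for the lung and endothelial markers, and A12 and B14 are the reverse.

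Scaling moved the medians and left A6 lowest for most genes. With median-of-ratios scaling the median of all rows went from -0.16 to 0.02 and with 9 reference genes to 0.12, so that the share of rows with a lower mean went from 64.9% to 48.5% and 41.0%. Measured from the all-row value, the median of the 48 genes was -0.79 as deposited, a distance that a factor per library can hardly change. The number of genes lower with digitoxin was 48, 48 and 47, the exception being Aurkb (0.07 with reference genes). A6 was the lowest tumor for 48, 48 and 46 genes, and the median ratio of the other tumors to A6 was 8.96, 6.60 and 5.16.

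Further genes of the pathway were read from lists that hold none of the 51. Of 50 other replication genes, 46 were tested, 44 had a lower mean with digitoxin, none had an unadjusted p under 0.05 in limma, and the median was -0.62. Of 62 other mitotic genes, 48 were tested, all 48 were lower with a median of -0.93, and A6 was the lowest tumor for 47. Of 32 other regulators of the cycle, 25 were tested and 23 were lower, with a median of -0.41. The background for each is the 64.9% of rows with a lower mean and 50.5% of rows lowest in A6. Of the 9 reference genes tested, used in every cell, 7 were lower with a median of -0.37. These values also turned on A6: without it, 31 of 46 replication genes were lower with a median of -0.09, 38 of 48 mitotic genes with -0.12, 17 of 25 regulators with -0.07 and 6 of 9 reference genes with -0.05, beside 66.3% of all rows.

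The genes with the highest means of these lists were mixed. Cks2, which binds Cdk1, was at 123, 23.3 and 242 FPKM with digitoxin (A1, A6, A12) and at 226, 159 and 204 with vehicle (B5, B9, B14), with a log2 fold change of -1.12. Bub3, a checkpoint protein, was at 145, 108 and 186 FPKM with digitoxin and at 195, 156 and 164 with vehicle. Zwint, of the kinetochore, was at 58.2, 62.3 and 45.2 FPKM with digitoxin and at 53.4, 75.1 and 42.6 with vehicle. Zwint was unlike the set, being lowest in B14 and not in A6.

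Among the replication genes, Rpa3, of the single-strand binding complex, was at 75.1, 41.1 and 115 FPKM with digitoxin (A1, A6, A12) and at 144, 85.9 and 106 with vehicle (B5, B9, B14). Slbp, which binds histone mRNA, was at 53.3, 21.3 and 73.0 FPKM with digitoxin and at 72.7, 59.6 and 71.9 with vehicle. Rnaseh2a was at 51.3, 59.2 and 62.3 FPKM with digitoxin and at 60.7, 54.5 and 54.6 with vehicle. A6 was thus not low for Rnaseh2a. Orc4, of the origin recognition complex, had groups that did not overlap, as did 3.26% of all rows, at 10.8, 6.74 and 13.4 FPKM with digitoxin and at 18.3, 15.6 and 17.0 with vehicle.

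Among the regulators, Ccnd3, cyclin D3, was at 144, 164 and 44.2 FPKM with digitoxin (A1, A6, A12) and at 99.3, 90.0 and 44.5 with vehicle (B5, B9, B14). Unlike Ccnd1, it was highest in A6, next in A1 and lowest in A12 and B14. Myc was at 67.8, 27.8 and 129 FPKM with digitoxin and at 91.4, 74.2 and 124 with vehicle. E2f4, the E2F partner of the repressive DREAM complex, was at 51.6, 32.1 and 84.9 FPKM with digitoxin and at 64.1, 62.9 and 77.7 with vehicle. Both had the order of the division genes, with A6 lowest and A12 highest, and log2 fold changes of -0.58 for Myc and -0.38 for E2f4.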

How the data were processed

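Messenger RNA libraries (TruSeq) of 3 digitoxin and 3 vehicle tumors were sequenced as single reads by the authors, aligned with Bowtie 2 and TopHat 2 and quantified with Cufflinks 2. The authors deposited FPKM, with 1 column per tumor. The genome build of the table is not given in the methods text, and the submitters' processing notes list hg19, a human build, although the rows hold rat genes, so the loci of the table were not printed.

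Where a symbol had several rows, its highest-mean row was used. Digitoxin and vehicle tumors were tested by limma 3.58.1 (R 4.3.3, lmFit, eBayes with a trend) on log2(FPKM + 1), a scale that understates changes of low genes. The test covered 10749 rows whose mean reached 1 FPKM. Tests were two-sided, with adjustment by the method of Benjamini and Hochberg. The p-values measure the spread between libraries, 1 per tumor, in which differences between rats and in the tissue punched cannot be told apart. An exact permutation test of 3 against 3 tumors cannot go below 0.1 and was not used. The fit was tested on simulated data. Summaries and plots used Python 3.11.15, pandas 2.3.3 and matplotlib 3.10.9.

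The members and all lists were chosen with earlier results of these data known. Values in every tumor were given for the 4 genes with the highest mean of each set, for genes with non-overlapping groups or below the filter, for Mki67, Mcm2, Foxm1 and other standard genes, and for the 3 highest of each further list, and fold changes for every gene. Orc4 was named after its values were seen.

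The replicate numbers come from the sample titles. No label ties a number to a day. Deviations from the group means correlated across rows at r = 0.426, 0.606 and 0.869 for replicates 1, 2 and 3. They correlated at 0.644 for A1 and B9 and at 0.612 for A6 and B5, so these values do not single out the pairing by number. The pairing was used only as an alternative. Alternatives were a pseudocount of 0.1, no filter or one at 5 FPKM, median-of-ratios and reference gene scaling, no trend, the replicate block, summed symbols and each tumor left out. The reference promoters are those of RefSeq on GRCr8, and 12 of the 51 genes were not matched.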

Additional observations from a re-analysis of the deposited data

How the results depend on the processing

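No member passed an adjusted p of 0.05 in limma in any fit run. Of all rows tested, 0 passed, except that leaving out a tumor gave 0 to 2 rows (2 without vehicle replicate 3) and keeping only the replicate 1 and 2 tumors, added after seeing the data, gave 2. With the replicate number as a block, 0 rows and 0 members passed, 48 of 48 members were lower, and rows with an unadjusted p under 0.05 went from 36 to 446; the block changed no adjusted call. Leaving out tumors moved the fold change across 0 for 13 members, each higher only without digitoxin replicate 2 (A6): Cdk4 (-0.72 to 0.0132), Ccne1 (-1.34 to 0.0488), E2f1 (-0.68 to 0.18), Mcm3 (-1.66 to 0.0582), Mcm5 (-1.86 to 0.0762), Mcm6 (-1.58 to 0.13), Cdt1 (-0.74 to 0.18), Cdc45 (-1.38 to 0.12), Tk1 (-1.73 to 0.0617), Plk1 (-1.94 to 0.0143), Aurkb (-0.54 to 0.23), Melk (-1.34 to 0.15) and Cdc20 (-1.68 to 0.0794). Aurkb was also higher with reference gene scaling (0.0728). The cause was not tested. The unknown read depth limits what low FPKM, such as those of A6, can show.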
